A study of Homo sapiens with 2 samples.

Results

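ATF3 and BCL2L1 lie on different chromosomes, and the peaks of accessible chromatin around both genes are described here in Z-138 cells, with and without knockdown of SMARCA4. Members were all peaks that overlapped an hg19 span holding the gene and its flanks: chromosome 1 from 212640001 to 212830000 for ATF3 (190 kb), and chromosome 20 from 30200001 to 30360000 for BCL2L1 (160 kb). They numbered 34 of 96664 peaks in both lists: 19 of 55124 control and 15 of 41540 knockdown peaks. Z-138 is an established human line of mantle cell lymphoma, a malignancy of mature B cells. ATAC-seq, in which a transposase cuts and tags open DNA, was done on 1 library of cells with a control shRNA and 1 library of cells with an shRNA against SMARCA4. Both cultures received doxycycline per the labels, peak names in both lists carry the term DMSO, a common solvent control, and no label names ibrutinib or venetoclax as a treatment. Neither the knockdown nor the identity of the line could be checked on its markers, since a peak list holds no RNA or protein levels.

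ATF3 encodes a transcription factor of the basic leucine zipper family that cells induce under many kinds of stress. BCL2L1 encodes BCL-XL, a relative of BCL2 that blocks apoptosis at mitochondria, and by alternative splicing also a short form that promotes it. SMARCA4 is an ATPase subunit of SWI/SNF complexes, which move nucleosomes and so make DNA accessible. Venetoclax inhibits BCL2, and ibrutinib inhibits the kinase BTK of B-cell receptor signalling; the series was designed around the response of mantle cell lymphoma to these drugs together. A gene annotation of hg19 was not used here, so no peak was assigned to a promoter, exon or intron. In the RefSeq gene order of GRCh38.p14, ATF3 is followed by GARIN4 and LINC02773, with BATF3 next to the latter, and BCL2L1 lies between COX4I2 and TPX2, so a peak in a flank may belong to a neighbouring gene.

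Sequence upstream of annotated start sites of both genes is given as background. RefSeq lists 2 windows for either gene, and the 250 bases before each start are printed 5′ to 3′, with matches to the motifs named next in capitals. The windows are of GRCh38.p14 and were not placed on the hg19 peaks. Whether they cover every start site of either gene was not checked, so a motif absent from them may lie before another start.
ATF3, chr1:212565157-212565406, GRCh38.p14, plus strand: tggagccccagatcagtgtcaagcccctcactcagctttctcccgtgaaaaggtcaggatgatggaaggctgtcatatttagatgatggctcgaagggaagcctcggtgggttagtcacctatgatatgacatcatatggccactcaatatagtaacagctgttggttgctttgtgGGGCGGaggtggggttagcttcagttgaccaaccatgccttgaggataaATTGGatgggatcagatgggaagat
ATF3, chr1:212614768-212615017, GRCh38.p14, plus strand: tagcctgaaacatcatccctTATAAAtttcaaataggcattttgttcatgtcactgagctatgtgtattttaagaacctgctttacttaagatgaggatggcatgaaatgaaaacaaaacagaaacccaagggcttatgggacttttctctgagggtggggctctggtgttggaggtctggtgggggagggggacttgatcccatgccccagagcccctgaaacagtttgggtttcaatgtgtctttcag
BCL2L1, chr20:31723964-31724213, GRCh38.p14, minus strand: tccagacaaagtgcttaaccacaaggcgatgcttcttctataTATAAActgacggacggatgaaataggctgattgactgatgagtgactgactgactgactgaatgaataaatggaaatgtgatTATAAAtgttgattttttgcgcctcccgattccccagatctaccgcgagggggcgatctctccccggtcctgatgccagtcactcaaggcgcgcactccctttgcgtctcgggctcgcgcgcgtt
BCL2L1, chr20:31722869-31723118, GRCh38.p14, minus strand: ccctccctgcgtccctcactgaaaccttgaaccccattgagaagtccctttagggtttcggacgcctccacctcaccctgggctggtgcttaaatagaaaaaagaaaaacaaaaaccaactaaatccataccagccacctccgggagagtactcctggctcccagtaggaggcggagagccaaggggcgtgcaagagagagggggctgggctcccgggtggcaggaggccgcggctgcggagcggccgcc

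The windows were searched on both strands for 9 motifs, and 3 of them occurred. One ATF3 window held an SP1 box (GGGCGG), 74 bases before the start, and an inverted CCAAT box (CCAAT), 25 bases before it. The other ATF3 window and one BCL2L1 window held the TATA box letters (TATAAA), at 230 bases in the former and at 208 and 125 bases in the latter. Over all 35116 windows of this length, 42.6% held the SP1 box, 32% the CCAAT box and 10.7% the TATA letters. The cyclic AMP response element TGACGTCA (1.65% of all windows), its relative TGACGCAA (0.478%) and the AP-1 site TGACTCA or TGAGTCA (4.2%), which ATF and AP-1 factors are known to bind, did not occur in these windows. Nor did the ETS letters CCGGAAG (8.52%), the E-box CACGTG (6.34%) or the NFKB motif (0.179%). BCL2L1 windows had 17 and 12 CpG dinucleotides, more than 61.0% and 51.5% of all windows. ATF3 windows had 4 and 0, more than 29.3% and 0.0% of all windows.

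At 6 of 8 paired ATF3 sites the knockdown library had at least 1.5 times fewer stacked reads than its depth would give, which was so at 1 of 7 paired BCL2L1 sites and in 27.5% of all pairs. BCL2L1 site 2 could not have been counted: depth gives 5.37 reads there, and no knockdown peak had a summit below 4. A weak site that fell this far would have left no pair, so these counts depend in part on control strength. Accessibility was read as the number of reads stacked at a peak's summit, recovered from the fold and p-value of each peak. Equal accessibility would stack 1.34 times as many reads in the deeper knockdown library, if both libraries placed the same share of their reads in peaks. That share was not known, and over all pairs of the genome the median ratio of stacked reads was 1.125. Ratios scaled by depth thus include any difference between the libraries as wholes. Over the 8 ATF3 pairs of peaks, 152 control and 106 knockdown reads were stacked, where depth gives 203.9, a scaled ratio of 0.520 (95% interval 0.402 to 0.671). Over the 7 BCL2L1 pairs there were 68 and 82 reads, where depth gives 91.2, a ratio of 0.899 (0.644 to 1.26). Free of any depth scaling, the knockdown-to-control ratio of BCL2L1 was 1.73 times that of ATF3 (1.13 to 2.65), a comparison added after the values were seen. Intervals are exact for counts at fixed positions and cover counting error only: with a single library per group there is no test of the difference, and the spread between cultures is unknown. They leave out that summits were picked separately in each library and that a pair needed a called peak in both. A weak site stays a pair only if its knockdown summit is not low, which can raise the ratio of a weak locus. Control summits had a median of 8 reads at BCL2L1 and 16 at ATF3. The loci were not compared at like strength. The median scaled log2 ratio was -1.10 at ATF3 and -0.10 at BCL2L1, beside -0.25 over all 34161 pairs of the genome. The summed log2 ratio was -0.94 at ATF3 and -0.15 at BCL2L1. Scaled to the median of all pairs, these were -0.69 and 0.10. Set against the reads of the surrounding 10 kb in place of the library's depth, they became -0.22 over 7 pairs and -0.15 over 6 pairs. ATF3 site 3 and BCL2L1 site 2 have no such local value, so these last sums are of fewer pairs than the depth-scaled ones.

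Around ATF3 the control list had 10 peaks and the knockdown list 8, all at 10 sites numbered here along the chromosome. Every knockdown peak had a control partner, meaning an overlap of at least 1 bp, where 79.4% of all knockdown peaks had one. Of the control peaks 8 of 10 had a knockdown partner (80.0%, exact interval 44.4 to 97.5%), where 60.5% of all control peaks had one. For control peaks of like fold, within 10% of each member's, that share averaged 84.4% over the 10, so the number of partners was near that of peaks of this strength. For knockdown peaks of like fold the share with a control partner averaged 88.2% over the 8. Control peaks covered 2898 bp and knockdown peaks 2011 bp. In windows of 190 kb along the genome, 4.35% held at least 10 control peaks, with a median of 3. The span was thus among the denser ones.

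**Figure D1:**
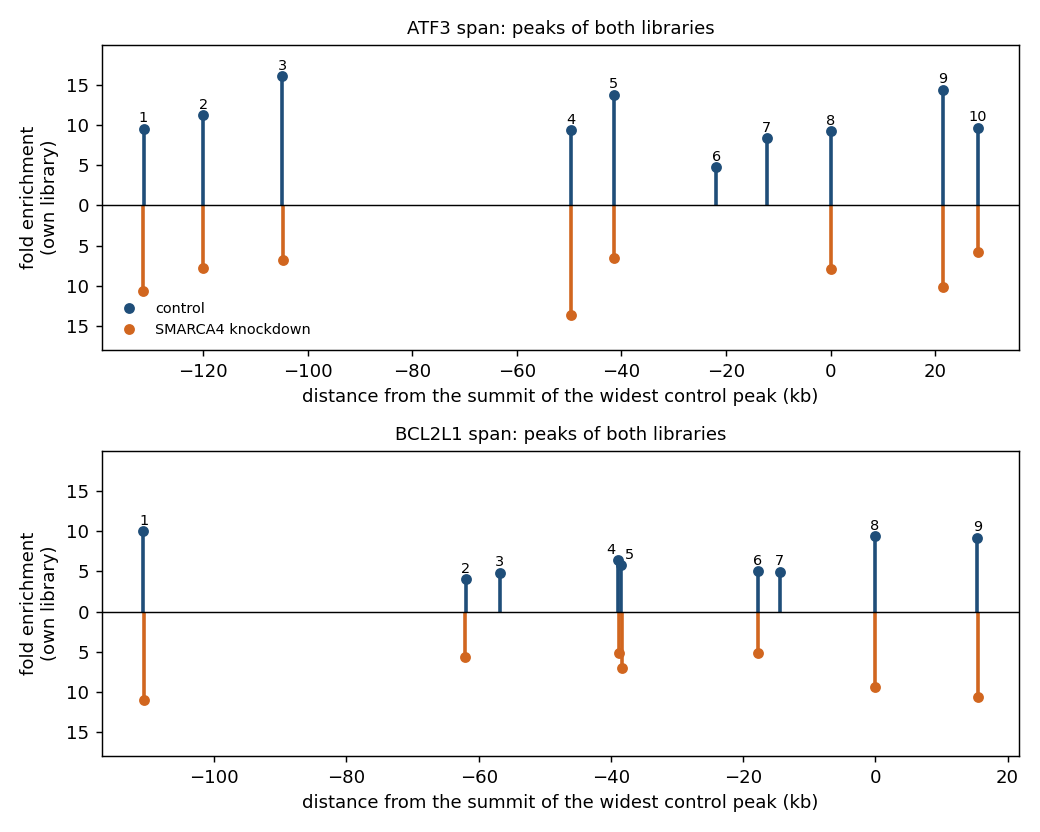
Peaks of both libraries along the ATF3 and BCL2L1 spans, by distance in kb from the summit of the widest control peak. Stems give the authors' fold enrichment, control upward and knockdown downward, each relative to its own library; ATF3 sites 6 and 7 and BCL2L1 sites 3 and 7 have no knockdown stem.

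The largest difference among the ATF3 pairs was at site 3, in the lower flank of the span. The control peak ran from 212677145 to 212677385 (241 bp), with a fold of 16.1 and 24 stacked reads. Its knockdown partner ran from 212677195 to 212677342 (148 bp), with a fold of 6.81 and 8 stacked reads. The control peak had the highest fold of all 34 peaks and exceeded 97.9% of its list, while its partner exceeded 45.7% of the knockdown list. A fold is relative to its own library, so folds are set side by side and not divided. The depth-scaled ratio of stacked reads was 0.248 (0.0965 to 0.572), and a lower one was found in 0.711% of all pairs and in 1.64% of pairs of like strength, whose summed reads, with the control scaled to knockdown depth, lay within 20%.

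Site 5 showed the next largest difference. Here the control peak, from 212740453 to 212740775 (323 bp), had a fold of 13.8 and 22 reads. The knockdown peak, from 212740581 to 212740785 (205 bp), had a fold of 6.60 and 9 reads. The scaled ratio was 0.305 (0.124 to 0.689), and 1.95% of all pairs and 3.69% of those of like strength were lower. Site 10, at the upper end, had a control peak from 212810116 to 212810343 (228 bp) with a fold of 9.65 and 15 reads, and a knockdown peak from 212810158 to 212810312 (155 bp) with a fold of 5.86 and 7 reads. Its ratio was 0.348 (0.120 to 0.906), with 3.22% of all pairs and 3.73% of those of like strength lower. At these sites the weaker knockdown peak was also the narrower one, and it lay for the most part inside its partner.

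Sites 2, 8 and 9 had knockdown summits lower by about the same proportion. Site 9 had a control peak from 212803492 to 212803809 (318 bp, fold 14.4, 23 reads) and a knockdown peak from 212803471 to 212803840 (370 bp, fold 10.2, 14 reads), a ratio of 0.454 (0.216 to 0.920). At site 2 the control peak ran from 212661963 to 212662236 (274 bp, fold 11.2, 17 reads) and the knockdown peak from 212662038 to 212662206 (169 bp, fold 7.82, 11 reads). Its ratio was 0.482 (0.204 to 1.09), an interval that includes 1. The widest ATF3 peak in the control list was at site 8, from 212781718 to 212782321 (604 bp, fold 9.25, 26 reads), wider than 97.4% of its list. Its knockdown partner ran from 212781820 to 212782174 (355 bp, fold 7.96, 18 reads). The ratio was 0.516 (0.267 to 0.978), and the interval ended just below 1. This site had the most stacked reads of any member in the control library.

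ATF3 sites 1 and 4 did not share the lower signal. Site 4 had a control peak from 212732125 to 212732521 (397 bp, fold 9.34, 13 reads) and the strongest knockdown peak of the span, from 212732180 to 212732544 (365 bp, fold 13.7, 23 reads). Its scaled ratio was 1.32 (0.641 to 2.83), with 90.1% of all pairs and 91.3% of those of like strength lower. Site 1 had a control peak from 212650578 to 212650779 (202 bp, fold 9.51, 12 reads) and a knockdown peak from 212650546 to 212650789 (244 bp, fold 10.7, 16 reads), a ratio of 0.994 (0.441 to 2.30). Site 4 lies 7931 bp from site 5 in the control list, where the difference was opposite in direction. Leaving out site 4, no other ATF3 site had more stacked reads in the knockdown than depth would give.

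**Figure D2:**
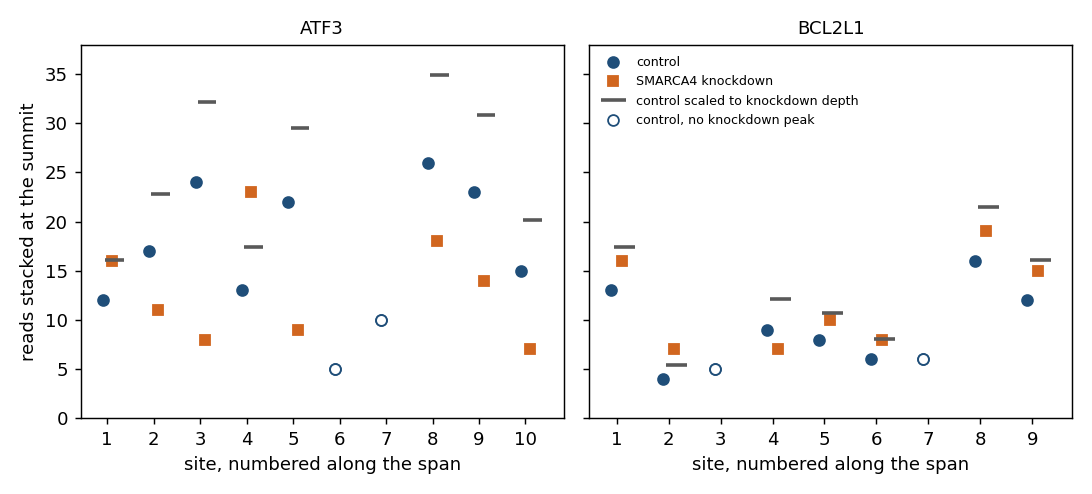
Reads stacked at each summit in the control (circles) and knockdown (squares) library, by site; bars give the control value scaled to knockdown depth, and open circles are control peaks without a knockdown peak. At ATF3 the knockdown squares of sites 2, 3, 5, 8, 9 and 10 lie below even the unscaled control value, while at BCL2L1 that holds for site 4 alone.

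None of the 15 pairs had a knockdown summit at least 1.5 times higher than depth would give, which 4.65% of all pairs were. At that share few or none would be found among 15 pairs. Any lower value after scaling was found in 7 of 8 ATF3 and 6 of 7 BCL2L1 pairs, against 70.9% of all pairs, so this count sets neither locus apart from the background. Without scaling, 6 of 8 ATF3 and 1 of 7 BCL2L1 pairs had fewer reads in the knockdown, against 33.0% of all. The counting interval lay wholly below 1 in 5 ATF3 pairs and 0 BCL2L1 pairs, against 6.77% of all. This count depends on the depth scaling. On the log2 scale the intervals of ATF3 sites 8, 9 and 10 ended at -0.03, -0.12 and -0.14, above the median of all pairs, -0.25. Those of sites 3 and 5 ended below that median, at -0.81 and -0.54. The knockdown peak was the narrower in 6 of 8 ATF3 and 3 of 7 BCL2L1 pairs, against 52.9%.

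**Figure D3:**
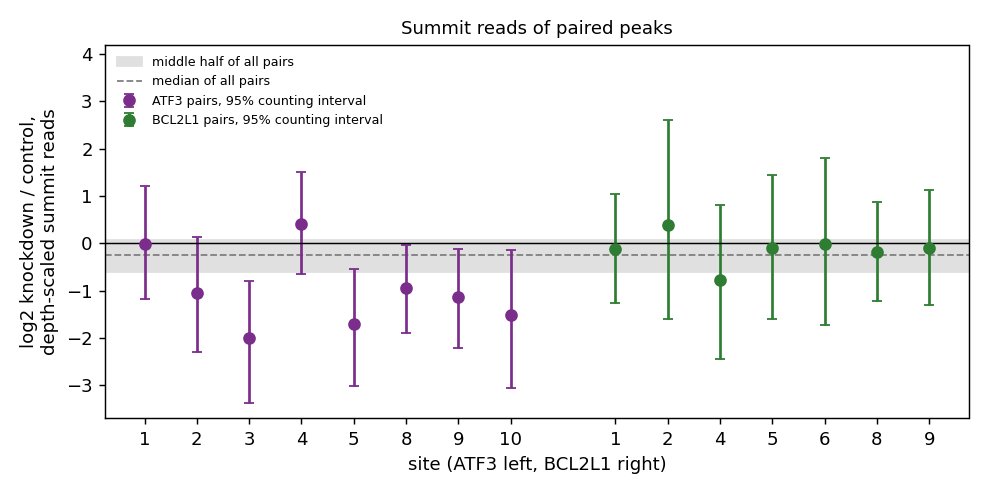
Depth-scaled log2 ratio of summit reads, knockdown to control, for the 8 ATF3 and 7 BCL2L1 pairs, with exact 95% counting intervals; the band holds the middle 50% of all pairs and the dashed line is their median, -0.25. At ATF3 the intervals of sites 3, 5, 8, 9 and 10 end below 0, those of sites 3 and 5 also below the dashed line, and all BCL2L1 intervals cross 0.

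Reads in the surrounding 10 kb were also fewer at the ATF3 sites whose summits were lower by 1.5 times. These reads, which include those of the peak itself, follow from the caller's background wherever it exceeded the lowest level of the library. After scaling by the read number, which was 1.42 times as high in the knockdown, 5 of 7 ATF3 and 3 of 6 BCL2L1 pairs with known values had fewer of them in the knockdown, against 67.9% of 28714 pairs of the genome. The ATF3 count was thus near the background share. These counts are not of separate reads: the windows of BCL2L1 sites 4 and 5, whose control summits lie 448 bp apart, are nearly the same and give 2 of its 3 lower values, and those of ATF3 sites 4 and 5 and of ATF3 sites 9 and 10 overlap in part. Around site 10 there were 70 control and 41 knockdown reads, a scaled ratio of 0.413, and 0.491% of pairs with known values were lower. Around site 9 there were 71 and 53 (0.527), and around site 8, which had the highest number, 204 and 156 (0.540). Around site 5 the numbers were 71 and 58 (0.577), and around site 2 they were 64 and 60 (0.662). Sites 1 and 4, whose summits were not lower by 1.5 times, had 39 and 66 (1.19) and 53 and 85 (1.13). At site 3 the knockdown background was at its lowest level, which allows at most 36 reads against 59 in the control, a ratio of at most 0.433.

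Relative to these local reads, as given above, the summed ATF3 summits were close to those of BCL2L1. Site 3 has no value there. Fewer reads were thus present both at these summits and in the 10 kb around them, and how far the peak's own reads make up the local number was not tested. Relative to its surroundings, site 5 had a log2 ratio of -0.92, the lowest of the 7, and site 2 followed at -0.46. The BCL2L1 pairs ran from -0.54 at site 6 to 0.31 at site 5, and the median of all pairs with known values was -0.14.

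**Figure D4:**
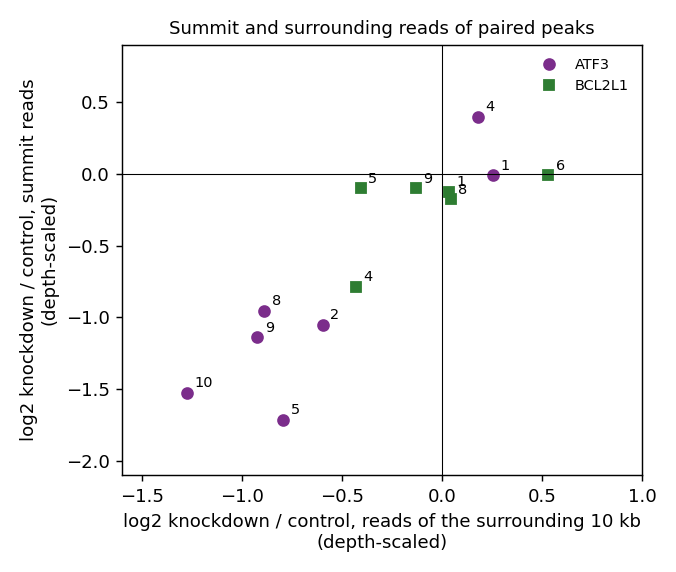
Log2 ratio of knockdown to control for summit reads against that for reads of the surrounding 10 kb, both depth-scaled, for the 7 ATF3 and 6 BCL2L1 pairs where both backgrounds are known. ATF3 sites 2, 5, 8, 9 and 10 lie in the lower left, and ATF3 sites 1 and 4 lie to the right of 0; reads of the peak are part of both axes.

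ATF3 sites 6 and 7 had a control peak alone, and they are neighbours between sites 5 and 8. The peak of site 7, from 212769810 to 212769986 (177 bp), had 10 stacked reads at a fold of 8.34, and the nearest knockdown peak was 11833 bp away. Among the 7420 control peaks with a fold within 10% of it, 80.1% had a partner. Scaled to the knockdown depth its summit corresponds to 13.4 reads, while a summit of 4 reads could be called at the lowest knockdown background and 7 reads at the highest of the span. Site 6, from 212760220 to 212760353 (134 bp), was the weakest ATF3 peak, with a fold of 4.71 and 5 reads. It corresponds to 6.71 reads, and 34.5% of control peaks of like fold had a partner. A missing peak means a signal under the limit of the caller, which also asks for a minimum length, and not closed chromatin.

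The BCL2L1 span held 9 control and 7 knockdown peaks at 9 sites. All 7 knockdown peaks had a control partner, and 7 of 9 control peaks had a knockdown partner (77.8%, exact interval 40.0 to 97.2%), beside the genome-wide 79.4% and 60.5% given above. For control peaks of like fold the share averaged 56.3% over the 9, and for knockdown peaks of like fold it averaged 80.1% over the 7. Control peaks covered 2001 bp and knockdown peaks 2206 bp. Of all windows of 160 kb, 4.0% held at least 9 control peaks, with a median of 2. The median fold of the BCL2L1 control peaks was 5.79, somewhat below the 6.45 of all control peaks, while that of the ATF3 control peaks was 9.58. The smallest width of the list, 94 bp, was found in 3 of 9 BCL2L1 control peaks and in 15.8% of all control peaks.

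The strong BCL2L1 sites 1, 8 and 9 had ratios close to 1, with wide intervals. Site 8 had the widest BCL2L1 peaks, from 30311255 to 30311821 in the control (567 bp, fold 9.35, 16 reads) and from 30311146 to 30311812 in the knockdown (667 bp, fold 9.39, 19 reads). Its scaled ratio was 0.885 (0.431 to 1.84). Site 1, at the lower end, ran from 30200708 to 30201030 in the control (323 bp, fold 10.0, 13 reads) and from 30200675 to 30200975 in the knockdown (301 bp, fold 11.0, 16 reads), a ratio of 0.917 (0.414 to 2.07). Site 9, on the side towards TPX2, ran from 30326869 to 30327331 in the control (463 bp, fold 9.20, 12 reads) and from 30326864 to 30327253 in the knockdown (390 bp, fold 10.6, 15 reads), a ratio of 0.932 (0.407 to 2.18). These intervals allow changes of more than 1.5 times either way, so equal accessibility is not shown.

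The remaining BCL2L1 pairs had 4 to 9 stacked reads in the control and 7 to 10 in the knockdown library, where the medians of all peaks were 8 and 10. Sites 4 and 5 lay 371 bp apart in the control list. At site 4 the peaks ran from 30272607 to 30272702 (96 bp, fold 6.39, 9 reads) in the control and from 30272657 to 30272745 (89 bp, fold 5.13, 7 reads) in the knockdown, a ratio of 0.580 (0.184 to 1.75). At site 5 they ran from 30273074 to 30273168 (95 bp, fold 5.79, 8 reads) and from 30273081 to 30273364 (284 bp, fold 7.05, 10 reads), a ratio of 0.932 (0.331 to 2.72). The order of these neighbours thus differed between the libraries, by a few reads. Site 2 ran from 30249500 to 30249674 (175 bp, fold 4.03, 4 reads) and from 30249404 to 30249758 (355 bp, fold 5.71, 7 reads), a ratio of 1.30 (0.332 to 6.08). Site 6 ran from 30293697 to 30293790 (94 bp, fold 5.02, 6 reads) and from 30293664 to 30293783 (120 bp, fold 5.10, 8 reads), a ratio of 0.994 (0.302 to 3.48). With so few reads, a difference of several times would not be detectable at these sites.

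BCL2L1 sites 3 and 7 had a control peak alone, both at the smallest width of 94 bp. Site 3 ran from 30254653 to 30254746 with a fold of 4.84 and 5 reads, and site 7 from 30297012 to 30297105 with a fold of 4.95 and 6 reads. At knockdown depth this corresponds to 6.71 and 8.05 reads, where a knockdown peak needed 4 to 7 reads depending on its background. Of control peaks of like fold, 35.4% and 36.5% had a partner. The nearest knockdown peaks were 4894 and 3228 bp away.

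Partners at ATF3 matched more closely in position than those at BCL2L1. Summits of ATF3 pairs lay 3 to 40 bp apart, with a median of 27 bp, and those of BCL2L1 pairs 7 to 99 bp apart, with a median of 71 bp, beside 29 bp over all pairs. At ATF3 sites 2, 3, 8 and 10 the knockdown peak lay wholly inside the control peak. At BCL2L1 sites 4 and 5 partners shared 46 and 88 bp. When a partner had to share 50% of both peaks, all 8 ATF3 pairs were still pairs and 4 of the 7 BCL2L1 pairs were, against 79.0% of all pairs.

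**Figure D5:**
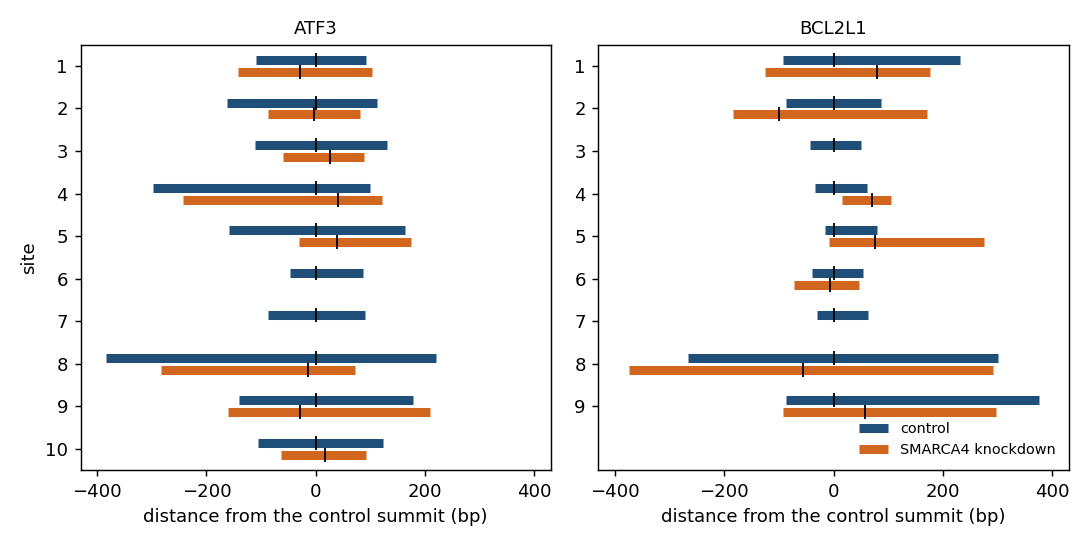
Extent of each peak in bp from the control summit of its site, control above and knockdown below, with a tick at the summit. Knockdown peaks of ATF3 sites 2, 3, 4, 5, 8 and 10 are shorter than their partners, while BCL2L1 sites 2, 5, 6 and 8 have longer knockdown peaks.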

How the data were processed

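Both files are peak lists of 10 columns, 1 per library, with peaks called separately in each. Reads were handled with bcl2fastq (2.17.1.14), BWA and MACS2 on the build hg19, per the submitters' processing notes; the parameters used are not given there. The deposited fold is the ratio of summit reads to background, 1 added to each. Deposited −log10 p and −log10 q values belong to the summit, and the deposited score was 10 times the −log10 q-value without decimals in all 55259 control and 41611 knockdown peaks. Summit reads and background were solved from fold and p-value with a Poisson tail, which gave back the p-values within 4.2e-05 on the −log10 scale and was tested on simulated data. Depth comes from the lowest background and the shortest peak (94 and 89 bp): 6.89 M and 9.76 M reads for an assumed genome of 2.7 Gb. Reads without molecular identifiers are not independent molecules. Chromosomes 1 to 22 and X were kept. All overlapping pairs were used, and every member is named; members, motifs and alternatives were chosen with earlier results of these data known. Python 3.11.15, scipy 1.17.1 and pandas 2.3.3 were used.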

Additional observations from a re-analysis of the deposited data

How the results depend on the processing

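Of 58 recomputed values, 53 stayed within 1.5 times the number of peaks, or within the counting interval of the share or ratio. With so few peaks in a span these intervals are wide, so staying within them is a weak criterion. The summed ATF3 log2 ratio, -0.94, was -0.22 scaled to the surrounding 10 kb (without site 3) and -0.52 with no scaling, and lay between -1.17 and -0.22 in all 7 alternatives; scaled to the median of all pairs it was -0.69. That of BCL2L1, -0.15, lay between -0.15 and 0.27 and changed sign with no scaling (0.27) and with the median of all pairs (0.10), so no direction is given for it. With reciprocal overlap of 50%, 57.1% of BCL2L1 knockdown peaks had a partner. Of BCL2L1 control peaks 44.4% then had a partner in place of 77.8%, which was still within the interval. With lists of equal length 100.0% of BCL2L1 control peaks had one, since fewer peaks were in the list, and at q-values of at most 1e-05 there were 5 BCL2L1 control peaks in place of 9. Leaving out the strongest pair, or the pair farthest from the median, was added after seeing the data. No replicate could be left out with 1 library a group, and summits of 4 to 9 control reads limit what can be seen at BCL2L1.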

Other observations

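Peaks just outside the spans give the local setting. The 3 nearest pairs on either side of the ATF3 span reached 137.9 kb from it and stacked 106 control and 109 knockdown reads, a depth-scaled ratio of 0.766 (95% counting interval 0.581 to 1.01), beside 0.520 (0.402 to 0.671) within the span. The pair next to the lower end, from 212629308 to 212629459 in the control list, had 7 and 10 reads, and the pair next to the upper end, from 212838658 to 212839029, had 11 and 12 reads. The pair from 212967871 to 212968273 had 23 and 15 reads, a ratio of 0.486. The 3 nearest pairs on either side of the BCL2L1 span stacked 66 and 71 reads, a ratio of 0.802 (0.565 to 1.14). Leaving out ATF3 sites 3 and 5, chosen after their values were seen, the summed log2 ratio of the other ATF3 pairs was -0.68 (-1.10 to -0.26). The difference between the span and its surroundings was not tested.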
